A study of Mus musculus with 6 samples.

Results

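Esrp1 and Esrp2, the epithelial splicing regulatory proteins, and 4 genes with exons they are known to control, Fgfr2, Cd44, Ctnnd1 and Enah, were followed in epididymal white fat of control and cold-labelled mice. These 6 genes of 54356 were chosen by name. Their 98 annotated transcripts, of 140137 that could be joined to a gene, were sorted by exon structure alone into an epithelial class, a mesenchymal class and a remainder. Whole frozen fat pads of male wild type C57BL/6N mice aged 20 weeks gave 1 poly(A) RNA library per mouse, 3 labelled ctrl (mice 5, 6 and 10) and 3 labelled cold (mice 7, 12 and 16). The protocol text, identical for all 6 libraries, describes single housing at 4 °C for 24 h and a colony kept at 22 to 24 °C, so the temperature of the control mice rests on the word ctrl. Reads were 50 nt paired ends from strand-specific libraries.

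ESRP1 and ESRP2 are RNA-binding proteins of epithelial cells that bind GU-rich stretches near alternative exons and promote or silence those exons. In FGFR2 the choice lies between exons IIIb and IIIc of the third immunoglobulin loop, which sets whether the receptor binds FGF7 and FGF10 or FGF2 and its relatives. In CD44, a hyaluronan receptor, ESRPs favour the variable exons. In p120 catenin (Ctnnd1) they favour the short isoform 3, and in the actin regulator MENA (Enah) they favour the small exon 11a. Fat cells and stromal cells are mesenchymal, and a fat pad beside the epididymis can also hold epithelium of the duct.

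The epithelial exons of the receptor and of MENA are printed 5′ to 3′ in the sense of the RNA, from GENCODE M21 transcripts on GRCm38, all on the minus strand. Fgfr2 exon IIIb covers chr7:130199758-130199905, is 148 bases long and is in 10 of the 27 annotated Fgfr2 transcripts. Exon IIIc is in 5. Enah exon 11a covers chr1:181911597-181911659, has 63 bases and is an annotated exon of 1 transcript, Enah-202. They are shown because the epithelial class of each of these 2 genes is defined by its exon.
Fgfr2 exon IIIb: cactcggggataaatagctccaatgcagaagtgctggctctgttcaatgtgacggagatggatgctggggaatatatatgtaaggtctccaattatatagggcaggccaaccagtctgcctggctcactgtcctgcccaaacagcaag
Enah exon 11a: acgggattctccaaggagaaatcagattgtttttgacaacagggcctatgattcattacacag

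On the sense strand, neither exon held the ESRP-type motif GGTGG or the Rbfox motif TGCATG. Of annotated internal coding exons of like length (within 10 bases), 19.79% hold the first and 3.95% the second at the length of exon IIIb, and 6.8% and 1.41% at the length of exon 11a. Fgfr2 exon IIIc, not printed here, held TGCATG 1 time and GGTGG 0 times. Of exons of its length, 3.85% hold TGCATG and 19.27% hold GGTGG. The flanking introns were not searched.

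Sequencing depth was 19735167 to 28608052 estimated read counts per library. Of 17852 genes that passed a low-count filter, 415 (2.32%) were higher and 101 (0.566%) lower in the cold group at an adjusted p under 0.05, by the quasi-likelihood test of edgeR, adjusted after Benjamini and Hochberg. The median log2 fold change of all tested genes was -0.01. The tissue label held: adipocyte markers summed to 54372 to 64682 TPM (transcript abundance per length, scaled to a fixed library sum), with 1 of 10 higher (Lep) and 1 lower (Cfd). Libraries also differed in genes of neighbouring organs. The seminal vesicle genes Svs2, Svs4 and Svs5 were at 41.2, 35.7 and 64.4 CPM (reads scaled to a fixed library size) in ctrl 10 and at most 0.63 CPM in any other library. The epididymal genes Crisp1 and Spink8 were at 111.8 and 43.6 CPM in cold 7 and at most 0.26 CPM elsewhere. In such bulk samples, fewer cells of a type and less RNA per cell cannot be told apart.

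Of the 6 genes, edgeR called Esrp2 and Enah higher in the cold group and DESeq2 called Esrp1, Esrp2, Fgfr2 and Enah higher; neither tool called one lower. Those 4 also had an unadjusted p under 0.05 in edgeR. Over all tested genes and both directions, 17.6% had an unadjusted p under 0.05 in edgeR and 7.51% were called by DESeq2, and the list counts at these thresholds given further on stand against these shares. Esrp1, Esrp2 and Enah were also higher in every cold library than in every control, a separation that 12.7% of all tested genes showed. The median log2 fold change of the 6 was 0.79.

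Esrp1 (ENSMUSG00000040728.15, chr4:11331933-11386783, minus strand), an epithelial splicing regulator, was at 1.73, 1.12 and 0.257 CPM in ctrl 5, 6 and 10. In cold 7, 12 and 16 it was at 2.98, 7.16 and 6.53 CPM. The lowest cold library lay above the highest control, but the controls themselves differed several-fold, from 5 to 42 reads. The log2 fold change was 2.39 (SE 0.61), with an adjusted p of 0.0955 by edgeR, so Esrp1 was not called. The call depended on the tool and on 1 library: the adjusted p was 0.000343 by DESeq2 and 0.0491 by edgeR without cold 7. Without cold 7, edgeR called 929 genes higher and 161 lower in the whole table. Calls gained in that fit, here and for the genes below, came with this wider gain.

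Esrp2 (ENSMUSG00000084128.10, chr8:106130319-106136974, minus strand), its paralog with overlapping targets, was at 0.661, 0.581 and 0.667 CPM in the controls, from 13 to 16 reads. Its cold values were 1.79, 4.64 and 2.76 CPM, from 41 to 118 reads. The controls were nearly level, and each cold library was above all of them. The log2 fold change was 2.26 (SE 0.39; edgeR adjusted p = 0.0330), and Esrp2 passed the test. The call was lost when any of ctrl 6, ctrl 10, cold 12 or cold 16 was left out (edgeR adjusted p from 0.0705 to 0.132), at log2 fold changes of 1.85 to 2.33. Those fits say little of Esrp2 itself, since without ctrl 6, ctrl 10 or cold 12 edgeR called 0 genes of the whole table, and without cold 16 it called 2 higher and 1 lower. It was also lost with an offset for transcript length (1.80, adjusted p = 0.188).

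Per transcript length the Esrp2 groups did overlap. Its TPM was 0.831, 0.235 and 1.20 in the controls and 1.17, 2.94 and 2.60 in the cold libraries. In ctrl 10, 73.8% of the TPM came from Esrp2-206, a short processed transcript that held 1 read there. In ctrl 5, the retained-intron forms Esrp2-209 and Esrp2-204 gave 51.4% and 21.4% on 2 and 1 reads. Esrp2-209 gave 35.1% and 36.9% in cold 12 and cold 16 on 4.9 and 5 reads. Esrp2-202 gave 27.0% in cold 7 on 2 reads. The full-length coding form Esrp2-201 had 12.8, 12.8 and 11.3 estimated reads in the controls and 35.5, 109 and 67.8 in the cold libraries. The TPM of Esrp2-201 alone was 0.226, 0.235 and 0.244 in the controls and 0.650, 1.79 and 0.947 in the cold libraries, without overlap. Esrp2 overlaps 2 genes on the other strand, Nfatc3 and the RNA 1810019D21Rik. The latter had 9, 5 and 4 reads in the controls and 13, 24 and 26 in the cold libraries; the strand setting of the counting is not given, and whether reads were shared was not tested. On the per-length scale Esrp1 (0.404 ± 0.291 TPM in controls and 2.20 ± 0.779 TPM in cold, SD, n = 3) and Esrp2 (0.755 ± 0.486 and 2.24 ± 0.937 TPM) overlapped each other within each group. Esrp1 itself separated the groups on this scale, at 0.103 to 0.683 TPM in the controls and 1.32 to 2.82 TPM in the cold libraries.

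Within Esrp1, most reads were assigned to 2 coding forms. Esrp1-204 had 0, 7.7 and 5 reads in the controls and 60.7, 139 and 142 in the cold libraries. Esrp1-203 had 35.7, 17.3 and 0 reads in the controls and 0, 43.4 and 42.8 in the cold libraries. Esrp1-203 did not separate the groups, and at these counts the share of each form swung between libraries of the same group. No difference in transcript usage was called (adjusted p = 1.00 by edgeR's diffSpliceDGE).

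**Figure D1:**
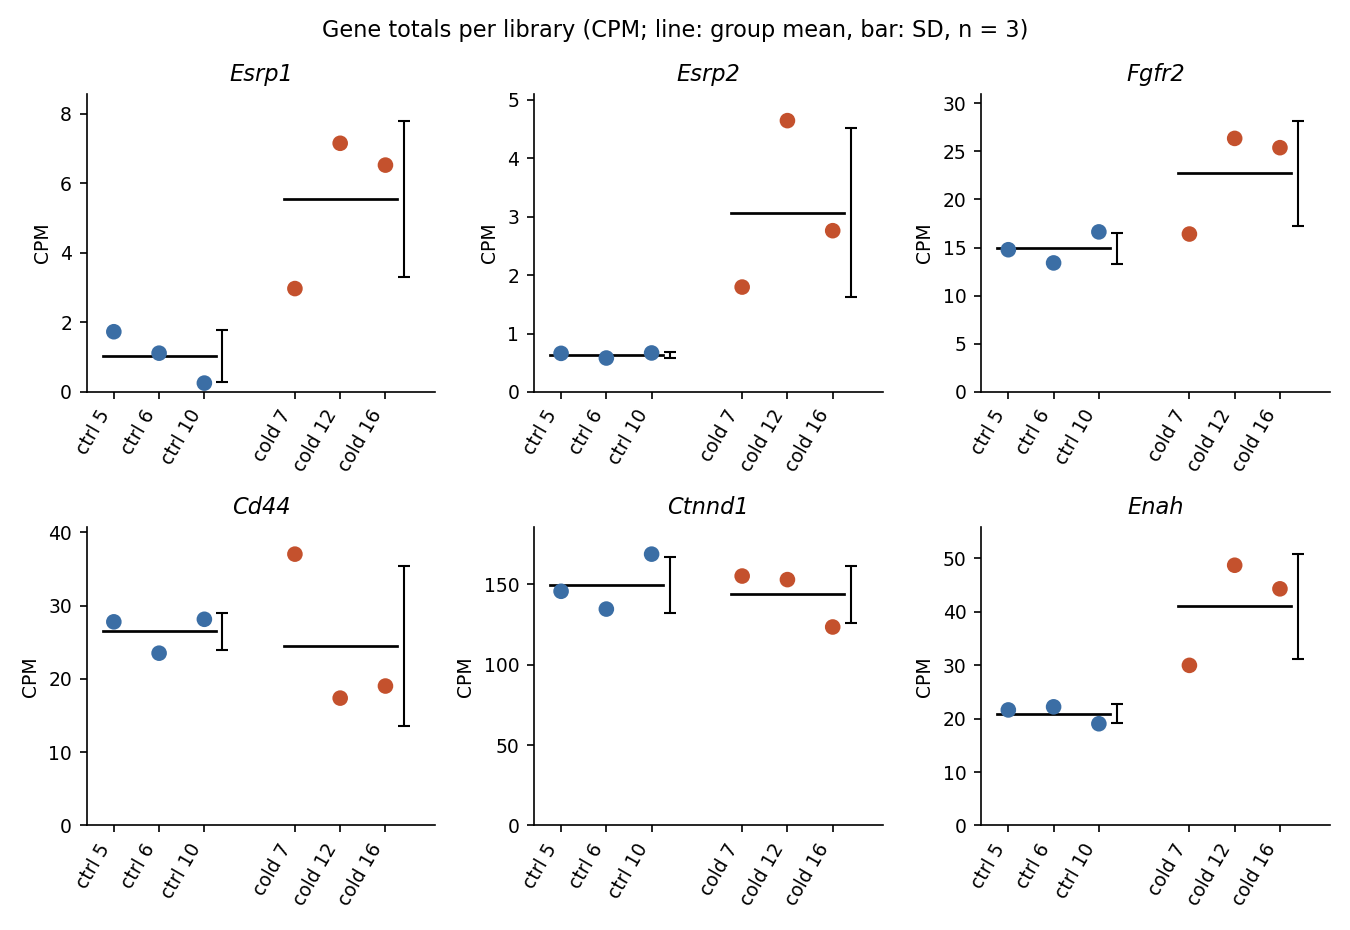
Gene totals (CPM) of the 6 genes in each library, with blue points for ctrl and red points for cold, a line for the group mean and a bar for the SD (n = 3). Esrp1, Esrp2 and Enah separate the groups, Fgfr2 is high in cold 12 and cold 16 (26.3 and 25.4 CPM) but not in cold 7 (16.4 CPM), and Cd44 and Ctnnd1 overlap.

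The receptor gene Fgfr2 (ENSMUSG00000030849.18, chr7:130162451-133123350 as annotated) was at 14.8, 13.4 and 16.6 CPM in the controls and 16.4, 26.3 and 25.4 CPM in the cold libraries. Cold 7 fell within the control range and the other 2 cold libraries were above it. The log2 fold change was 0.61 (SE 0.18; edgeR adjusted p = 0.133), which missed the threshold. It passed in DESeq2 (adjusted p = 0.0334) and in edgeR without cold 7 (0.79, adjusted p = 0.00930).

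Of the Fgfr2 classes, IIIb separated the groups. Transcripts with exon IIIb, the form that binds FGF7 and FGF10, held 15, 7 and 58 reads in the controls and 95, 128 and 169 in the cold libraries. Transcripts with exon IIIc, the mesenchymal form, held 130, 156 and 167 reads in the controls and 133, 226 and 211 in the cold libraries. The IIIb counts separated the groups and the IIIc counts overlapped. Of 233 bases that the IIIb form Fgfr2-211 has and the IIIc form Fgfr2-207 lacks, 85 lie outside exon IIIb. The class reads thus do not count the exon alone. Another IIIb form, Fgfr2-208, held 22.7 reads in ctrl 10, 67.8 in cold 12, 5.7 in cold 16 and 0 elsewhere. In a table in which the 4 target genes were replaced by their class sums (17859 rows tested, 2.32% higher), the IIIb class had a log2 fold change of 1.98 (SE 0.74; edgeR adjusted p = 0.233) and was not called. The IIIc class was at 0.08 (SE 0.22; edgeR adjusted p = 0.900). DESeq2 called the IIIb class (1.97, adjusted p = 0.0244). Without ctrl 10 the edgeR log2 fold change of IIIb was 3.41 (adjusted p = 0.0916), and without any other single library it was between 1.52 and 2.10.

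As a share of IIIb plus IIIc by TPM, IIIb made up 10.4%, 3.92% and 29.5% in the controls and 35.1%, 44.2% and 42.3% in the cold libraries. All 3 cold shares were above all 3 controls, and ctrl 10 stood closer to the cold group than to ctrl 6. The means were 14.6% ± 13.3 and 40.5% ± 4.80 (SD, n = 3 each), a difference of 25.9 percentage points (two-sided exact permutation p = 0.1, the smallest that 3 against 3 can give). Ctrl 10, with 58 IIIb reads, was the library with the seminal vesicle genes; whether the 2 are linked was not tested. With ctrl 10 and cold 7 both left out, an alternative added after the data were seen, the difference was 36.1 points and the IIIb class was called at a log2 fold change of 3.52 (edgeR adjusted p = 0.00656). Ctrl 10 had the highest control share and cold 7 the lowest cold share. Leaving out both therefore had to widen the difference, and that call gives no separate support.

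A large part of Fgfr2 reads went to transcripts that carry neither exon in the annotation, 212, 138 and 99 reads in the controls and 147, 315 and 348 in the cold libraries (log2 fold change 0.63, SE 0.30, edgeR adjusted p = 0.345). These counts overlapped between the groups. This remainder was 48.6% to 77.9% of the gene's TPM, so with all transcripts as denominator the IIIb difference was 12.0 points. It held the coding form Fgfr2-217, at 26.8% of gene TPM in the controls and 23.2% in the cold group. It also held the decay-type form Fgfr2-226, at 10.1% and 13.6%. Fgfr2-217 alone extends the annotated gene to base 133123350, inside the span of Ctbp2 on the same strand. Ctbp2 had 659 to 940 reads per library, and whether reads were shared was not tested. Reads of Fgfr2-217 are part of the Fgfr2 gene total. Among forms with a marker exon, the IIIb form Fgfr2-211 went from 2.98% to 11.6% and the IIIc form Fgfr2-207 from 23.5% to 17.5%; neither usage difference was called. The retained-intron form Fgfr2-224 reached 25.3% and 32.3% in ctrl 5 and ctrl 10 on 7.1 and 9.1 reads, which shows how far short forms with few reads move a TPM share. A second retained-intron form, Fgfr2-221, held 6.33% and 11.1% of gene TPM.

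Enah (ENSMUSG00000022995.16, chr1:181896384-182019990, minus strand), which codes the actin filament elongation factor MENA, was at 21.6, 22.2 and 19.0 CPM in the controls and 30.0, 48.7 and 44.3 CPM in the cold libraries. All cold libraries were higher, with cold 7 nearest the controls. The log2 fold change was 0.97 (SE 0.18; edgeR adjusted p = 0.0399), so Enah rose to 1.96 times the control level. Leaving out any library but cold 7 ended the call (edgeR adjusted p from 0.0648 to 0.146) at log2 fold changes of 0.84 to 1.02; of these 5 fits, the 1 without ctrl 5 still called many genes (648 higher), and the others called 0 or 3 in all.

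The rise was mainly in Enah without exon 11a. That class had 502, 453 and 357 reads in the controls and 627, 1072 and 1151 in the cold libraries. Its log2 fold change of 0.89 (SE 0.16; edgeR adjusted p = 0.0367) was the only one called among the 11 classes tested, and the same fits ended that call (edgeR adjusted p from 0.0510 to 0.150). In reads, it was led by Enah-211 and Enah-203, at 25.5% and 45.0% of gene TPM in the controls and 25.4% and 36.8% in the cold group.

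Few control reads were assigned to Enah-202, the form that holds exon 11a. It had 0, 6 and 0 reads in the controls and 26, 107 and 50 in the cold libraries. The groups did not overlap, and 6 control reads stood against 183 cold reads in all. The class missed the threshold in edgeR (adjusted p = 0.0651) and passed in DESeq2 (adjusted p = 4.19e-05) and in edgeR without cold 7 (adjusted p = 0.0416); its fitted fold change depends on the 0 counts and is not a bound. By TPM the 11a share was 0%, 2.13% and 0% in the controls and 6.21%, 13.0% and 7.05% in the cold libraries, a mean difference of 8.05 points (two-sided exact permutation p = 0.1). Thus even in the cold libraries most Enah TPM was assigned to forms without exon 11a. Enah-202 also differs from Enah-211 and Enah-203 outside exon 11a, by 296 and 157 bases, so its reads do not count the exon alone. Against all other Enah transcripts together it has 10 bases of its own, 0 of them in exon 11a. That comparison is of bases and leaves out splice junctions, and reads over the junctions of the exon were not counted. Absence of the exon in the controls was not tested. The retained-intron form Enah-208, which covers all 63 bases of the exon, held 8, 8 and 9 reads in the controls and 12, 15 and 16 in the cold libraries. Enah-210, another form without the exon, held 9.01% and 7.93% of gene TPM.

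Cd44 (ENSMUSG00000005087.17, chr2:102811141-102901665, minus strand), the hyaluronan receptor, was at 27.8, 23.5 and 28.1 CPM in the controls and 37.0, 17.4 and 19.0 CPM in the cold libraries. Cold 7 was the highest of all 6 libraries and the other 2 cold libraries were the lowest. No difference was called (log2 fold change -0.12, SE 0.30, edgeR adjusted p = 0.895). The cold libraries thus spread to both sides of the controls, and without cold 7 Cd44 was called lower (-0.54, edgeR adjusted p = 0.0325). Cold 7 was also the library with epididymal Crisp1 and Spink8, and the part of those genes' source in its Cd44 level was not tested.

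Transcripts with at least 1 of 10 annotated variable exons held 594, 424 and 434 reads in the controls and 659, 342 and 484 in the cold libraries. The standard form, which joins the flanking exons directly, held 78, 103 and 113 reads in the controls and 185, 100 and 62 in the cold libraries. Neither class was called (log2 fold changes -0.16 and 0.06, SE 0.29 and 0.48, edgeR adjusted p = 0.844 and 0.971). The variable share by TPM was 80.6%, 69.1% and 67.6% in the controls and 66.0%, 65.4% and 81.0% in the cold libraries, with a difference of -1.64 points (two-sided exact permutation p = 0.6). The 2 highest shares were 1 in each group.

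The size of the Cd44 variable share does not measure variable exons alone. Nearly all of that class was Cd44-207, at 71.6% and 69.4% of gene TPM in the 2 groups, against 27.5% and 29.1% for the standard Cd44-203. Cd44-207 has 5 variable exons and a last exon of 3197 bases, against 1791 bases in Cd44-203. Of its 2197 extra bases only 636 lie in variable exons, so use of variable exons and use of the long last exon cannot be told apart here.

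Ctnnd1 (ENSMUSG00000034101.14, chr2:84600071-84650765, minus strand), which codes p120 catenin, the protein that holds cadherins at the cell surface, was at 146, 135 and 169 CPM in the controls and 155, 153 and 124 CPM in the cold libraries. The groups overlapped (log2 fold change -0.06, SE 0.12, edgeR adjusted p = 0.860). Its long and short proteins start at different codons. The long isoform 1 starts at base 84624464 of chromosome 2 in 10 transcripts, and isoform 3 starts 101 codons further on, at base 84620951, in 5 transcripts.

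Isoform 3 transcripts, the epithelial class, held 469, 461 and 475 reads in the controls and 484, 771 and 811 in the cold libraries. Cold 7 was level with the controls and the other 2 cold libraries were above them. The log2 fold change was 0.31 (SE 0.15; edgeR adjusted p = 0.335). Isoform 1 transcripts held 3010, 2500 and 2728 reads in the controls and 3031, 3037 and 2645 in the cold libraries (log2 fold change -0.13, SE 0.14, edgeR adjusted p = 0.724). By TPM the isoform 3 share was 13.8%, 15.8% and 15.1% in the controls and 14.1%, 20.5% and 23.1% in the cold libraries. The mean difference was 4.34 points (two-sided exact permutation p = 0.3), with an SD of 1.02 in the controls and 4.67 in the cold group. Without ctrl 10 and cold 7, left out after the data were seen, the isoform 3 class was called higher (0.55, edgeR adjusted p = 0.0298). For this class ctrl 10 was the highest control (24.4 CPM) and cold 7 the lowest cold library (21.2 CPM). Leaving out both thus had to widen the difference, and that call gives no separate support. Isoform 1 stayed the main form in every library: Ctnnd1-202 held 46.9% and 48.1% of gene TPM and Ctnnd1-217 34.7% and 29.2%, against 14.2% and 17.4% for the isoform 3 form Ctnnd1-205.

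**Figure D2:**
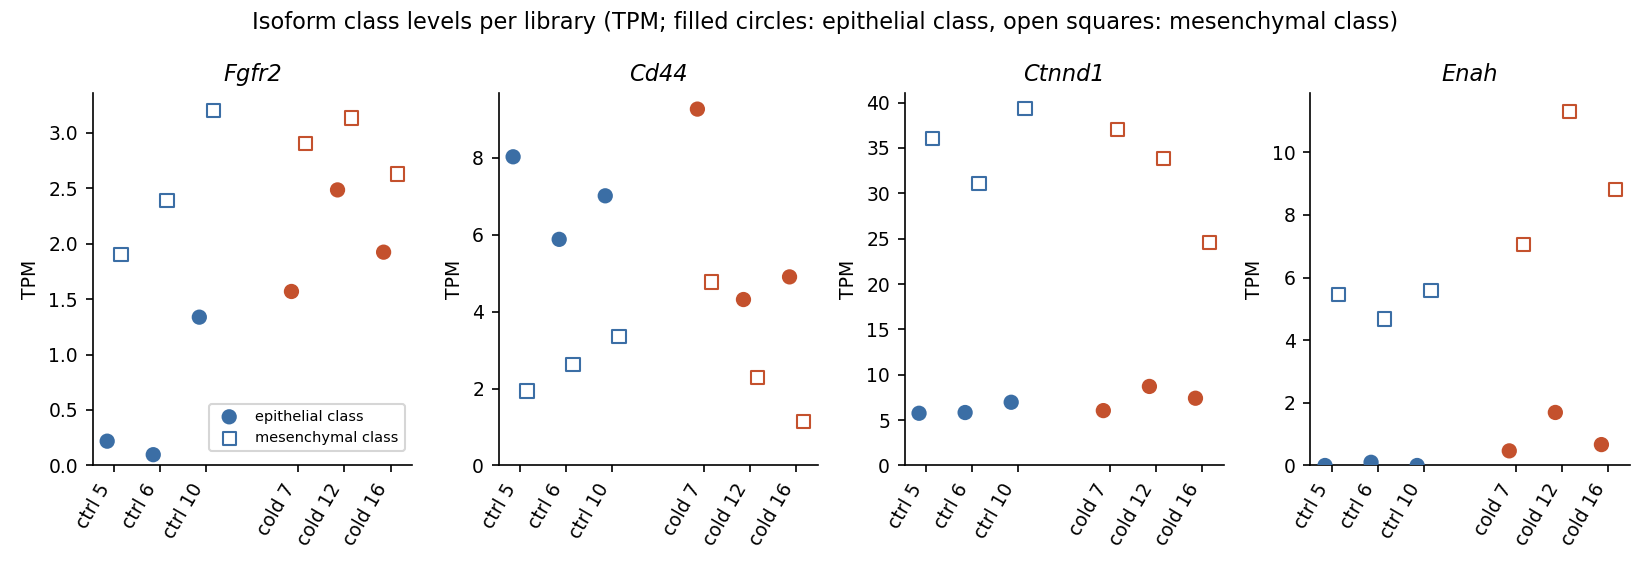
TPM of the epithelial class (filled circles) and the mesenchymal class (open squares) of Fgfr2, Cd44, Ctnnd1 and Enah in each library, blue for ctrl and red for cold, with a separate axis per gene. The IIIb class of Fgfr2 and the 11a class of Enah are higher in all 3 cold libraries than in the controls, while the mesenchymal class stays above the epithelial class in every library except for Cd44.

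**Figure D3:**
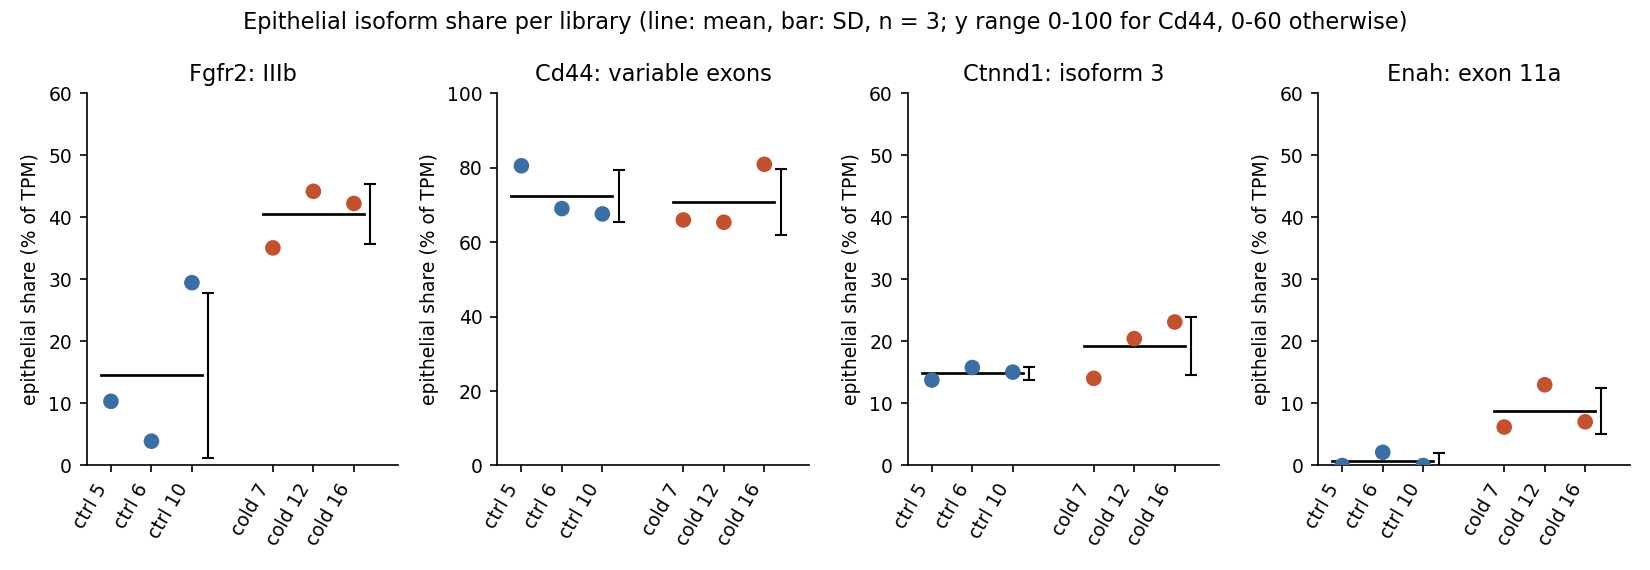
Epithelial class as a percentage of epithelial plus mesenchymal TPM in each library, with a line for the group mean and a bar for the SD (n = 3). The mean IIIb share of Fgfr2 is 14.6% in ctrl and 40.5% in cold and the mean 11a share of Enah 0.710% and 8.76%, without overlap of the groups, while the Cd44 and Ctnnd1 shares overlap.

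Transcript usage, the level of each transcript relative to the others of its gene, was tested over 9654 genes with edgeR's diffSpliceDGE, and 95 genes (0.984%) were called. Of the 6 genes, 5 could be tested and none was called; Esrp2 kept too few transcripts. Enah had the lowest p of the 5 (adjusted p = 0.918) and was the only one at an unadjusted p under 0.05. Enah was called without cold 7 (diffSpliceDGE adjusted p = 0.0364), a fit that called 180 genes in usage. At the level of single transcripts, 19 of the 98 were tested, and 0 of all 42984 tested transcripts (0%) differed at an adjusted p under 0.05 in edgeR, whose smallest adjusted p was 0.193, while 3503 had an unadjusted p under 0.05, 6 of them among these genes.

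Of 16 further genes with known ESRP-regulated exons, 13 could be tested for usage and 1 was called. This was Numb, which codes an endocytic adaptor that restrains Notch (adjusted p = 0.00498). The call rested on Numb-208, which had 0 reads in every control and 23, 10.9 and 21.3 reads in the cold libraries, and was 1 of 100 among 35158 transcripts (0.284%) called in usage. The gene total of Numb was not called (log2 fold change -0.14, SE 0.07, edgeR adjusted p = 0.359). The Numb call was lost with limma's diffSplice (adjusted p = 0.527), with transcripts under 10 percent of their gene left out, and without any of ctrl 5, ctrl 6, ctrl 10 or cold 16 (adjusted p from 0.162 to 0.407). It was not determined which exon sets Numb-208 apart. The polarity gene Epb41l5 was the other with an unadjusted p under 0.05, and its adjusted p was 1.00.

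Other splicing regulators that act on the same exons gave no edgeR call among 24 tested, with 6 at an unadjusted p under 0.05 and 1 called by DESeq2, Rbfox3; 13 had a positive fold change. Rbfox3, a neuronal splicing factor, was at 1.57, 0.670 and 0.565 CPM in the controls and 2.71, 9.99 and 10.2 CPM in the cold libraries (log2 fold change 3.00, edgeR adjusted p = 0.0640). Rbm24, known from muscle splicing, had a log2 fold change of 1.29 (edgeR adjusted p = 0.0978). Nova2 and Rbfox2 were at -0.41 and -0.27 (edgeR adjusted p = 0.121 and 0.190). Rbfox2, which promotes exon IIIb in epithelial cells, was at 87.7 to 124.3 CPM.

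The repressors of Esrp1 and other epithelial genes gave no edgeR call among 7 (1 at an unadjusted p under 0.05, Twist1, and 0 by DESeq2), and 1 was positive. The factor Zeb1, which represses Esrp1, was at 48.3, 42.4 and 52.6 CPM in the controls and 46.9, 44.6 and 36.7 CPM in the cold libraries (log2 fold change -0.16, edgeR adjusted p = 0.549). Twist1 (-0.26), Snai2 (-0.23) and Snai1 (-0.12) were likewise not called. Of 6 epithelial transcription factors tested, 1 rose: Grhl2, a grainyhead factor of epithelial identity, from 0.248, 0.179 and 0.103 CPM to 1.23, 1.34 and 1.15 CPM (log2 fold change 2.75, SE 0.39, edgeR adjusted p = 0.0247). Ehf (3.70) and Elf3 (4.01) separated the groups without passing (edgeR adjusted p = 0.115 and 0.128), and Grhl1 was at -0.59 (edgeR adjusted p = 0.0668); DESeq2 called all 4 of these genes.

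No FGF ligand was called by edgeR. Fgf10, the stromal ligand of the IIIb receptor, was at 46.3, 43.7 and 55.1 CPM in the controls and 47.3, 60.4 and 47.9 CPM in the cold libraries, and neither it nor Fgf7 was called (log2 fold changes 0.10 and 0.14, edgeR adjusted p = 0.749 and 0.792). Of 4 tested ligands of the IIIc receptor 1, Fgf2, had an unadjusted p under 0.05 and was called by DESeq2. Fgf2 was at 65.2 to 88.5 CPM in the controls and 48.4 to 56.3 CPM in the cold libraries (log2 fold change -0.53, edgeR adjusted p = 0.0622), and Fgf9, Fgf18 and Fgf16 lay between -0.32 and 0.15. Of 9 other FGF receptor genes and partners 1 rose, Klb, the coreceptor for FGF21 in fat cells (log2 fold change 0.58, edgeR adjusted p = 0.0456). Fgfr4 and Kl had fold changes of 3.61 and 3.07 on the log2 scale without a call (edgeR adjusted p = 0.259 and 0.122), and Fgfr1, the receptor through which FGF21 signals with KLB, was at -0.22 (edgeR adjusted p = 0.207).

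The calls among partners of the other targets were all in 1 list. Of 12 genes of the p120 catenin family and its partners, Cdh1 and Cdh3 rose and Jup fell. Cdh1, the epithelial cadherin bound by p120, went from 1.65, 0.313 and 0.257 CPM to 9.41, 19.3 and 15.4 CPM (log2 fold change 4.25, SE 0.68, edgeR adjusted p = 0.0387). Cdh3 had a log2 fold change of 1.47 (edgeR adjusted p = 0.0398), and Jup, or plakoglobin, of -0.43 (edgeR adjusted p = 0.0437). Among 11 hyaluronan genes and CD44 partners none was called by edgeR, with 3 at an unadjusted p under 0.05 and 2, Has3 and Ezr, called by DESeq2: the hyaluronan synthase Has3 was at -0.95 and the membrane linker Ezr at 0.88 (edgeR adjusted p = 0.0658 and 0.0679), while Spp1 was at 1.14 and Hyal1 at 0.47. Among 9 relatives and partners of MENA none was called by edgeR (1 at an unadjusted p under 0.05 and by DESeq2, Zyx), with log2 fold changes from -0.31 (Zyx) to 0.22. Of Enah, Vasp and Evl, the genes of the family itself, edgeR thus called Enah.

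Epithelial markers moved with these results. Of 17 general epithelial markers, 16 were tested, all 16 had a positive fold change, 8 rose and the median log2 fold change was 2.78. Their summed TPM was 92.8, 43.4 and 65.9 in the controls and 206, 356 and 324 in the cold libraries. Examples that rose are the protease inhibitor Spint1 (log2 fold change 2.87), the apical trafficking protein Rab25 (2.66), the tight junction protein Cldn4 (3.39) and the protease St14 (2.35), with edgeR adjusted p from 0.0238 to 0.0357. Of 12 motile cilium genes all were positive and 4 rose, among them Tekt1 (log2 fold change 4.07, edgeR adjusted p = 0.0226). Of 14 genes of the epididymal duct and seminal vesicle 4 were tested and edgeR called none (3 at an unadjusted p under 0.05, 2 by DESeq2), with Pax2, Pax8 and Lrp2 between 2.97 and 4.44; Defb41 and Lcn9 were at 0 in all libraries. The part of these cells in the results above was not tested.

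Set against the epithelial markers, Esrp1 and Esrp2 did not separate the groups. The marker sum includes keratins, which mesothelium also makes, and their part in these ratios was not tested. Esrp1 was at 0.736, 0.980 and 0.156 TPM per 100 TPM of summed markers in the controls and 0.643, 0.794 and 0.752 in the cold libraries. Esrp2 was at 0.896, 0.541 and 1.82 in the controls and 0.570, 0.827 and 0.802 in the cold libraries. On this scale the cold values fell inside the control range for both. For Esrp1 the lower control value was that of ctrl 10, from 5 reads. Cold 7 was below ctrl 5 and ctrl 6, and cold 12 and cold 16 lay between them. For Esrp2 the upper control value was that of ctrl 10, where 1 read of Esrp2-206 gave 73.8% of the TPM. The cold values also overlapped those of ctrl 5 and ctrl 6. In ctrl 5, however, Esrp2-209 and Esrp2-204 gave 51.4% and 21.4% of the TPM on 2 and 1 reads. Short forms with few reads weighed in the cold values too, so the Esrp2 values on this scale rest on few reads. Fgfr2-IIIb, at 0.236, 0.224 and 2.03 against 0.761, 0.698 and 0.593, was inside the control range through ctrl 10 alone, and all 3 cold values were above ctrl 5 and ctrl 6. Enah-202, the form with exon 11a, was at 0, 0.234 and 0 in the controls and at 0.227, 0.476 and 0.206 in the cold libraries, which overlapped.

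**Figure D4:**
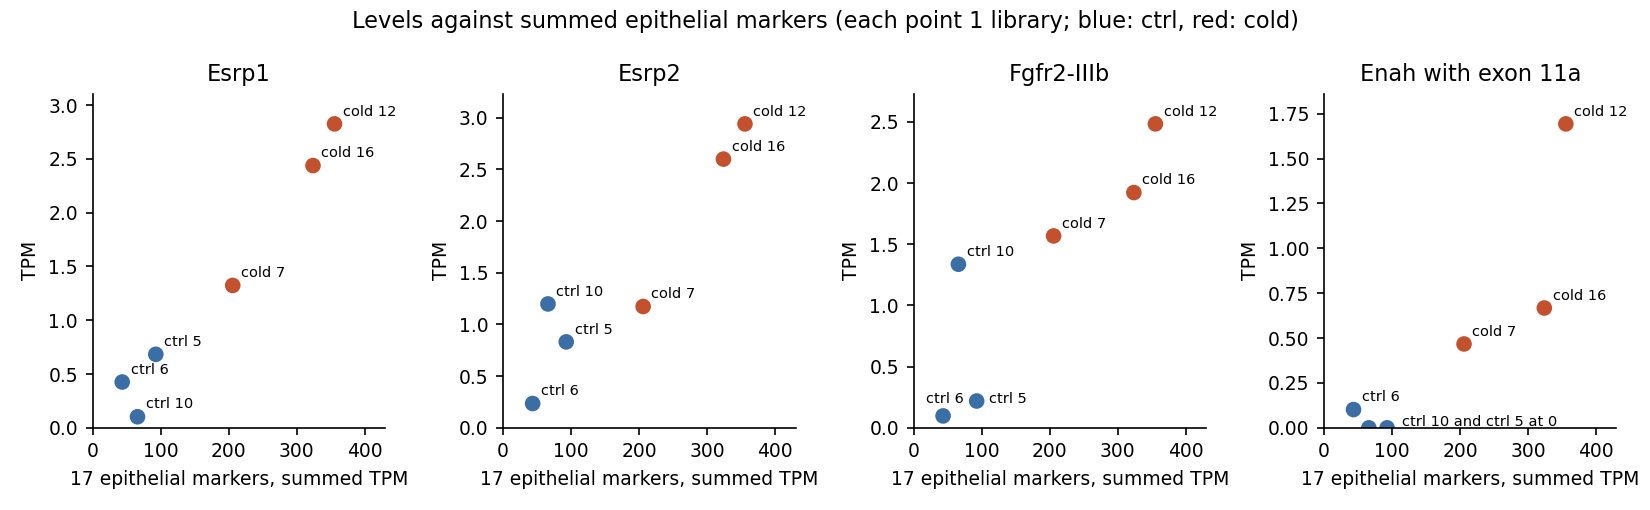
TPM of Esrp1, Esrp2, Fgfr2-IIIb and Enah with exon 11a (y axes) against the summed TPM of 17 epithelial markers (x axis), 1 point per library, blue for ctrl and red for cold. Cold 12 and cold 16 are highest on both axes in each panel; ctrl 10 lies above the other controls for Fgfr2-IIIb (1.34 TPM) at a marker sum of 65.9 TPM.

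EdgeR called no marker of mesothelium, leukocytes, endothelium or stroma. All 8 mesothelial genes had a negative fold change without an unadjusted p under 0.05 (median log2 fold change -0.59); their summed TPM was 171, 78.1 and 197 in the controls and 174, 52.6 and 52.6 in the cold libraries, so cold 7 was at the control level here, as it was for Fgfr2 and isoform 3 of Ctnnd1. Of 10 leukocyte, 7 endothelial and 9 stromal markers only endothelial genes had an unadjusted p under 0.05 (3 genes) or a DESeq2 call (1 gene, Tie1), with median log2 fold changes of -0.21, -0.23 and 0.07. The keratins among the epithelial markers are also made by mesothelium.

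The genes most like Esrp1 over the 6 libraries were sought by Pearson's r of log2(CPM + 0.5) among 13503 genes. The leading 5 were Samd10, the acyl-CoA thioesterase Acot1, the elongation factor Elof1, Tmem37 and the glutamine transporter Slc38a3, with r from 0.995 to 0.998. For Esrp2 they were the mitochondrial cochaperone Dnaja3, the WNT-pathway factor Lef1, the cilium gene Cfap157, Scube3 and the synapsin Syn2, with r from 0.994 to 0.998. Such likeness was common over so few libraries, which share the split into ctrl and cold: r was over 0.95 for 415 genes with Esrp1 and 303 with Esrp2. The 2 lists of 5 had no gene in common.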

How the data were processed

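For each library the authors deposited expected counts and TPM per transcript, as Salmon writes them; the submitters' processing notes name bcl2fastq, cutadapt, Salmon and GRCm38 without versions or settings. Expected counts keep the depth, whereas the TPM deposited by the authors are scaled by transcript length, so short transcripts with few reads weigh heavily in them. Of 140658 transcript identifiers, 140137 matched GENCODE M21 (139921 with the version); the other 521 held 0.124% to 0.394% of counts and were left out. Counts were summed per gene and rounded. R 4.3.3 with edgeR 4.0.16 (filterByExpr with a minimum count of 10 and total of 15, TMM, robust quasi-likelihood fit, two-sided, Benjamini-Hochberg over all rows, threshold 0.05) compared cold with ctrl; CPM use the TMM library sizes. Alternatives were RLE size factors, no filter, DESeq2 1.42.0, a length offset, limma 3.58.1, other share definitions and leaving out each library.

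The members and lists were chosen with earlier results of these data known, and up to 4 genes per list, those with the smallest p, were named, with the transcripts at 10 percent or more of their gene and the 5 genes most like each ESRP gene; others named were chosen after their values were seen. The isoform 1 start of Ctnnd1 was taken as the start annotated in most transcripts, because the most upstream one belongs to 1 transcript. Scripts were tested on simulated data. No 2 libraries of a group agreed within sampling noise (chi-square 12.2 to 33.2 times its degrees of freedom). The labels give separate mouse numbers and no batch.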

Additional observations from a re-analysis of the deposited data

How the results depend on the processing

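No paired analysis was possible because the mouse numbers differ between the groups. With 3 mice per group and few reads for the ESRP genes, calls turned on the tool and on single libraries. The counts of genes higher and lower were 696 and 228 with no low-count filter and 1036 and 304 by DESeq2, and 58 were lower with the length offset, which also ended the Esrp2 call (1.80). DESeq2 called Esrp1 (2.41), Fgfr2 (0.61), Fgfr2-IIIb (1.97) and Enah 11a (4.71), which edgeR did not. Usage was called for 1 gene by limma and for 17 with transcripts of at least 10 percent, and for 0 of the listed ESRP targets in both. The IIIb share difference was 12.0 points over all transcripts. Leaving out 1 library at a time, genes higher ranged from 0 to 929 and genes lower from 0 to 161. With 0 to 3 calls in all without ctrl 6, ctrl 10, cold 12 or cold 16, a call lost there says little of the gene. Both upper ends, and the most usage calls (180), came without cold 7, so a call gained there also says little of the gene. The log2 fold changes ranged from 1.96 to 2.99 for Esrp1, 1.85 to 2.52 for Esrp2 (called in 2 of 6), 0.50 to 0.79 for Fgfr2, -0.54 to 0.10 for Cd44, -0.119 to 0.0423 for Ctnnd1 and 0.84 to 1.14 for Enah (called in 1 of 6). For the classes they ranged from 1.52 to 3.41 for IIIb (the highest without ctrl 10), -0.0699 to 0.252 for IIIc, -0.532 to 0.0749 for variable Cd44, -0.58 to 0.40 for standard Cd44, -0.25 to 0.0060 for Ctnnd1 isoform 1, 3.94 to 8.84 for Enah 11a and 0.79 to 1.05 for Enah without it. Usage calls ranged from 139 to 180 genes and 0 to 1 listed targets, and the Enah usage adjusted p from 0.0364 to 1.00. With ctrl 10 and cold 7 both left out, added after the data were seen, 665 genes were higher, Esrp1 (2.25), Fgfr2 (0.87), Fgfr2-IIIb (3.52), Ctnnd1 isoform 3 (0.55) and Enah usage (adjusted p = 0.0278, with 267 usage calls) were called, standard Cd44 was at -0.37 and the IIIb share difference was 36.1 points; Esrp2 and Enah kept their calls. The cause of these differences was not tested.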
